A study of Mus musculus with 2 samples.

Results

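The Mir181 family comprises 6 microRNA genes, Mir181a-1, Mir181b-1, Mir181a-2, Mir181b-2, Mir181c and Mir181d, which were taken by their symbols in the GENCODE M21 annotation from 2202 counted microRNA genes. MicroRNA genes were counted in 2 libraries of RNA under 30 nt from whole gastrocnemius, a calf muscle, taken in bulk. Both came from male mice of the hybrid strain B6CASTF1/J at postnatal day 4, carry biological replicate numbers 1 and 2 and animal numbers 3 and 4 in the labels, and share a donor identifier. No allele, agent or second condition is labelled, so the family is described in each library and between the 2 libraries. All 6 genes had at least 10 sense reads in each library, as did 299 of the 2202 genes.

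The family is conserved across vertebrates and is best known from lymphocytes, where miR-181a sets the sensitivity of the T cell receptor during thymocyte selection. Members are also studied in differentiating myoblasts, in endothelium and in brain. A microRNA gene is transcribed into a hairpin, from which an RNA of the 5′ side (the 5p arm) and an RNA of the 3′ side (the 3p arm) can be cut, and the seed, bases 2 to 8 of the mature RNA, directs the pairing with target messages.

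The 4 mature 5p sequences of the family are shown because they decide which reads can be given to a single gene. They are the RefSeq sequences of build GRCm38.p6, 5′ to 3′, with the seed in capitals.
miR-181a-5p of Mir181a-1 and Mir181a-2: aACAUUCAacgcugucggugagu
miR-181b-5p of Mir181b-1 and Mir181b-2: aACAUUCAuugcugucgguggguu
miR-181c-5p of Mir181c: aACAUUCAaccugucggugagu
miR-181d-5p of Mir181d: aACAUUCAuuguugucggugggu
All 6 genes share this seed, and no other gene among the 1738 mature sequences of the table has it. Counted from 1 at the 5′ end over the shared length, miR-181b-5p differed from miR-181a-5p by A9U, C10U and A21G. The sequence of miR-181d-5p differed from miR-181b-5p by C12U over the shared 23 nt, and that of miR-181c-5p was 1 edit away from miR-181a-5p.

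The 3p arms are shown next because each is held by a single annotated hairpin, so that a full-length 3p read separates genes whose 5p arms are identical.
miR-181a-1-3p: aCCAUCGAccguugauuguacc
miR-181a-2-3p: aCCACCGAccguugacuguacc
miR-181c-3p: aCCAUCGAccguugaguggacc
miR-181b-1-3p: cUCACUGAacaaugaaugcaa
miR-181b-2-3p: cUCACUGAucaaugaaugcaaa
miR-181d-3p: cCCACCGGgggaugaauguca
By seed the 3p arms fell into 4 sets. Mir181a-1 and Mir181c shared the first, Mir181b-1 and Mir181b-2 the second, and Mir181a-2 and Mir181d each had a seed of their own. The 3p arm of Mir181a-2 differed from that of Mir181a-1 by U5C and U16C, and that of Mir181c from Mir181a-1 by U16G and U19G. Over 21 nt the 3p arms of Mir181b-1 and Mir181b-2 differed by A9U.

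The 6 genes form 3 clusters of 2 in mm10, the assembly named in the labels. On chromosome 1, Mir181a-1 (137966455 to 137966541, + strand) and Mir181b-1 (137966639 to 137966718) stand 97 bases apart in an intron of the noncoding gene Gm4258. Mir181b-1 also lies wholly in the exon of the lincRNA A430106G13Rik, which overlaps the last 11 bases of Mir181a-1. On chromosome 2, Mir181a-2 (38852735 to 38852810, + strand) and Mir181b-2 (38853830 to 38853918) are 1019 bases apart, in an intron of the nuclear receptor gene Nr6a1 but on the opposite strand. On chromosome 8, Mir181c (84178873 to 84178961, − strand) and Mir181d (84178716 to 84178787) are 85 bases apart in an intron of the germ cell gene Nanos3, on its strand. The clusters on chromosomes 1 and 2 also overlap genes of the other strand: an intron of Gm26936 spans the first, and an exon of Gm44144 overlaps Mir181b-2. All 6 Mir181 genes had 0 antisense reads in both libraries, which allows up to 0.673 and 0.976 CPM (reads per 1000000 sense microRNA reads).

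The libraries held 8522350 and 7240126 reads, of which 4458853 (52.3%) and 3073086 (42.4%) were sense reads in microRNA genes. They differed in their tissue markers: replicate 1 counted 652657 reads of the skeletal muscle gene Mir206 against 101 for replicate 2, and 59 reads of the cardiac gene Mir208a against 29718. The library labelled replicate 2 therefore goes against the muscle marker of its label, and the libraries are named here by their labels only. Because replicate 1 and replicate 2 differ this much, no pooled level is used as the level of gastrocnemius. Intervals below are exact Clopper-Pearson 95% intervals, which cover counting error and not the difference between animals.

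Mir181d, whose 5p arm is found in no other annotated hairpin, had the most counted reads of the members in both libraries, with Mir181b-2 close behind in replicate 2. It had 3762 reads (844 CPM) in replicate 1 and 3818 reads (1242 CPM) in replicate 2. Its cluster partner Mir181c had 3492 reads (783 CPM) and 3028 reads (985 CPM). Mir181b-2 had 3051 reads (684 CPM) and 3745 reads (1219 CPM). These 3 genes were of similar level, at ranks 88, 92 and 99 of all genes in replicate 1 and at ranks 61, 72 and 62 in replicate 2, and their ranges over the libraries overlapped.

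The other 3 members were lower and kept their order. Mir181a-1 had 1444 reads (324 CPM) in replicate 1 and 692 reads (225 CPM) in replicate 2. Mir181a-2 had 71 reads (15.9 CPM) and 124 reads (40.4 CPM). Mir181b-1 was the lowest, with 41 reads (9.20 CPM) and 27 reads (8.79 CPM). The ranges of these 3 genes overlapped neither each other nor those of the upper 3. Divided by hairpin length, the reads per base in replicate 1 and replicate 2 were 52.3 and 53.0 for Mir181d, 39.2 and 34.0 for Mir181c, and 34.3 and 42.1 for Mir181b-2. They were 16.6 and 7.95 for Mir181a-1, 0.934 and 1.63 for Mir181a-2, and 0.512 and 0.338 for Mir181b-1, which is the order of the undivided reads in each library.

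**Figure D1:**
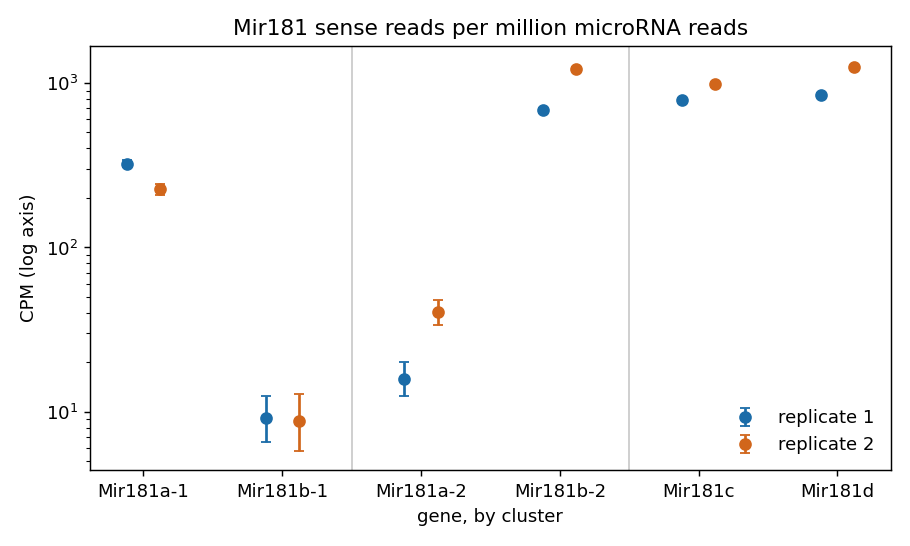
Level (CPM, log axis) of each Mir181 gene, ordered by cluster, with 1 point per library and bars for the exact 95% counting interval. Mir181d, Mir181c and Mir181b-2 lie between 684 and 1242 CPM in both libraries, while Mir181b-1 lies at 9.20 and 8.79 CPM.

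Among the upper genes the order changed between libraries. Mir181d exceeded Mir181c 1.08-fold (1.03 to 1.13) in replicate 1 and 1.26-fold (1.20 to 1.32) in replicate 2. The ratio of Mir181c to Mir181b-2 was 1.14 (1.09 to 1.20) in replicate 1 and 0.809 (0.770 to 0.848) in replicate 2, so these 2 genes traded places. In replicate 2 Mir181d and Mir181b-2 could not be told apart, at a ratio of 1.02 (0.974 to 1.07).

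The make-up of the family within a library does not depend on how the libraries are scaled to each other. Its 6 genes summed to 11861 reads (2660 CPM) for replicate 1 and 11434 reads (3721 CPM) for replicate 2. The chromosome 8 pair of Mir181c and Mir181d made up 61.2% of these reads in replicate 1 (60.3 to 62.0%) and 59.9% in replicate 2 (59.0 to 60.8%). The chromosome 2 pair made up 26.3% (25.5 to 27.1%) and 33.8% (33.0 to 34.7%). The chromosome 1 pair made up 12.5% (11.9 to 13.1%) and 6.29% (5.85 to 6.75%). The intervals of the libraries were apart for the chromosome 1 and chromosome 2 pairs and overlapped for the chromosome 8 pair.

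By gene, the share of Mir181a-1 was 12.2% in replicate 1 (11.6 to 12.8%) and 6.05% in replicate 2 (5.62 to 6.50%). Mir181b-2 held 25.7% (24.9 to 26.5%) and 32.8% (31.9 to 33.6%). Mir181c held 29.4% (28.6 to 30.3%) and 26.5% (25.7 to 27.3%), and Mir181d 31.7% (30.9 to 32.6%) and 33.4% (32.5 to 34.3%). The ratio of Mir181b-2 to Mir181a-1, the leading genes of their clusters, was 2.11 (1.98 to 2.25) in replicate 1 and 5.41 (4.99 to 5.88) in replicate 2. The balance of counted reads between the chromosome 1 and chromosome 2 loci thus differed between the libraries by more than counting error. Reads that fit both paralogs are left out of this balance, and no further animal measures its spread.

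**Figure D2:**
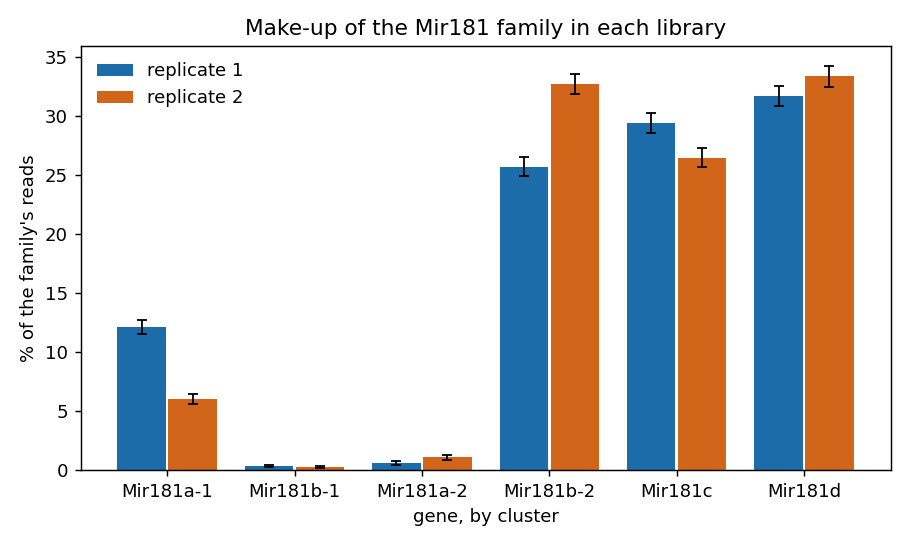
Share of the Mir181 family's sense reads (percent) held by each gene in each library, with exact 95% counting intervals. Mir181a-1 holds 12.2% in replicate 1 and 6.05% in replicate 2, while Mir181b-2 holds 25.7% and 32.8%.

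Within the clusters on chromosomes 1 and 2, nearly all counted reads belonged to 1 partner, and to a different arm family in each. Mir181a-1 had 35.2 times the reads of Mir181b-1 in replicate 1 (25.8 to 49.3) and 25.6 times in replicate 2 (17.5 to 39.2). On chromosome 2 the b gene led instead, with Mir181b-2 at 43.0 times Mir181a-2 (34.0 to 55.2) in replicate 1 and 30.2 times (25.3 to 36.4) in replicate 2. The chromosome 8 partners, whose mature arms are all unique, were nearly equal, as given above. For these 3 ratios the intervals of the libraries overlapped on chromosomes 1 and 2 and did not on chromosome 8.

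Counts of the a and b genes are uncertain because reads that map to several places are kept apart in these files and given to no gene. Such multimapping reads were 35.7% of replicate 1 and 45.1% of replicate 2, and how many of them came from Mir181 genes is not known from the files. The 5p arm of miR-181a stands in the hairpins of Mir181a-1 and Mir181a-2, and that of miR-181b in those of Mir181b-1 and Mir181b-2. Of the 22 nt stretches of each hairpin, 7 of 66 in Mir181a-1, 7 of 55 in Mir181a-2, 5 of 59 in Mir181b-1 and 5 of 68 in Mir181b-2 also stood in the paralog. Mir181c (68 stretches) and Mir181d (51 stretches) shared 0. A read lying wholly within a shared 5p arm fits both paralogs, so the counts of these 4 genes leave such reads out. Mir181c and Mir181d lose no 5p read to a paralog in this way. The order, shares and ratios given here are therefore of counted reads.

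The bases that follow the shared arms are shown because they are where the loci can first be told apart on the 3′ side, with the 6 bases past the arm in capitals.
Mir181a-1: aacauucaacgcugucggugaguUUGGAA
Mir181a-2: aacauucaacgcugucggugaguUUGGGA
Mir181b-1: aacauucauugcugucgguggguuGAACUG
Mir181b-2: aacauucauugcugucgguggguuUGAAUG
The Mir181a hairpins first differ at the fifth base past the arm, and the Mir181b hairpins at the first, G in Mir181b-1 and U in Mir181b-2. Before the 5′ end, the first difference stands 2 bases away in the Mir181a hairpins and 3 bases away in the Mir181b hairpins. The files give 1 count per hairpin, so the arm and the ends of the counted reads are not known.

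Mir181b-1 and Mir181b-2 were among the most unequal pairs of genes that share a mature sequence. There were 38 such pairs, and 20 had at least 1 read of each gene and 10 reads of the pair in both libraries. Mir181b-2 had 74.4 times the reads of Mir181b-1 in replicate 1 (54.7 to 104) and 139 times in replicate 2 (95.2 to 211), the highest of these 20 pairs in each library. Requiring reads of both genes in both libraries leaves out very unequal pairs: among all 25 pairs with at least 10 reads in replicate 1, Mir196a-2 over Mir196a-1 was higher at 248 (159 to 412), and Mir199a-2 over Mir199a-1 stood at 254 with a single read of the lower gene (45.2 to 10071). Among the 23 such pairs of replicate 2 no measured ratio was above that of the Mir181b pair, and in 1 pair the lower gene was at 0. Some lower ratios had intervals that overlapped that of the Mir181b pair, so counting error does not settle its rank. Among them were Mir7-1 over Mir7-2, at 27 (8.92 to 134) and 49 (8.39 to 1974), and Mir92-1 over Mir92-2 in replicate 1, at 43.3 (34.6 to 55.0). Mir181a-1 had 20.3 times the reads of Mir181a-2 (16.0 to 26.2), at rank 5, and 5.58 times (4.60 to 6.81), at rank 9. The median over the 20 pairs was 4.46 in replicate 1 and 4.42 in replicate 2, and the same gene led in both libraries in 18 of them. Sharing a mature sequence was recorded for 4 of 6 Mir181 genes and for 9.04% of the 1018 counted genes found in the sequence table, which holds 46.2% of the counted genes.

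**Figure D3:**
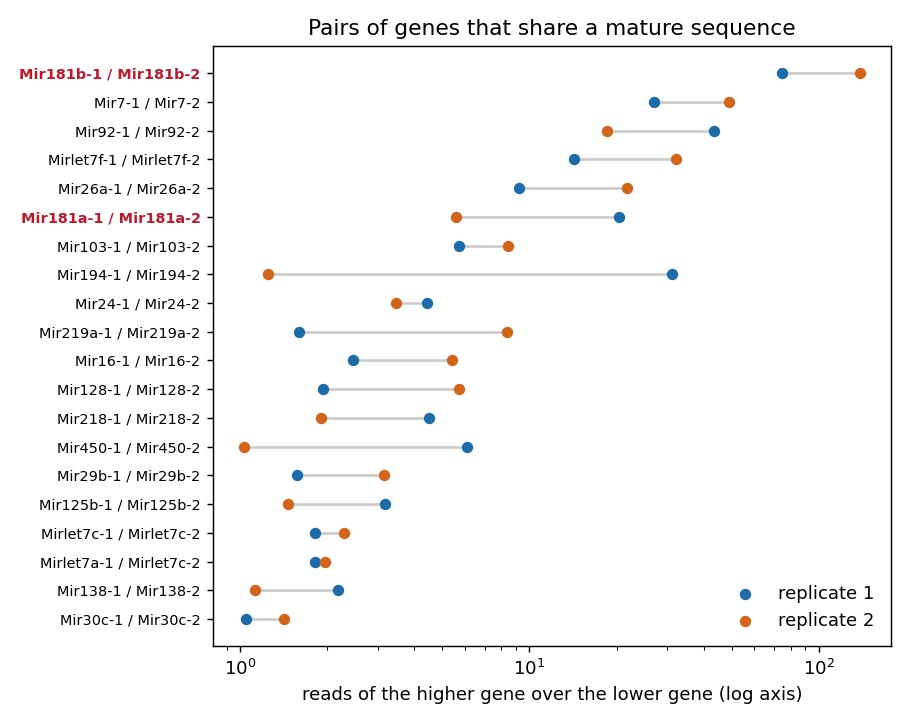
Reads of the higher gene over the lower gene (log axis) for the 20 pairs of genes that share a mature sequence, with 1 point per library. The Mir181b pair lies at 74.4 and 139, above the other pairs shown, and the Mir181a pair at 20.3 and 5.58.

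Relative to all microRNA reads, the share of the family was 0.266% (0.261 to 0.271%) for replicate 1 and 0.372% (0.365 to 0.379%) for replicate 2. The mean of 0.319% ± 0.0750 (SD, n = 2) mixes libraries with unlike tissue markers and is not a level of gastrocnemius. The order of the libraries turned when the microRNA genes of the imprinted Dlk1-Dio3 domain were left out of the total. The family then held 0.397% of replicate 1 and 0.376% of replicate 2. In bulk tissue, fewer cells of a type and less RNA per cell cannot be told apart.

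The libraries were compared with TMM effective library sizes (trimmed mean of M values, which sets a trimmed mean of gene ratios to no change). The median of all tested genes did not fall at 0 under this scaling. A gene was called with an adjusted p under 0.05 and a log2 ratio of replicate 2 over replicate 1 of at least 1 in either direction, by a two-sided exact binomial test over 410 genes. The test compares these 2 libraries, not conditions. Of the 6 members, 0 were called higher in replicate 2, where 17.6% of all tested genes were, and 1 was called lower, where 36.1% were. The members' median log2 ratio was −0.18, beside −0.33 over all tested genes, and 5 of 6 members lay within a log2 ratio of 1, as did 41.5% of the tested genes.

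The member called lower was Mir181a-1, at a log2 ratio of −1.15 (−1.28 to −1.02) and an adjusted p of 8.42e-71 by the exact binomial test. Its partner Mir181b-1, with few reads, stood at −0.67 (−1.45 to 0.04). On chromosome 2, Mir181a-2 stood at 0.71 (0.28 to 1.16) and Mir181b-2 at 0.21 (0.14 to 0.28). On chromosome 8, Mir181c stood at −0.30 (−0.37 to −0.22) and Mir181d at −0.07 (−0.13 to −0.0029). With TMM the partners of each cluster lay on the same side of 0, narrowly so for Mir181d, and the interval of Mir181b-1 spanned 0. Summed, the chromosome 1, 2 and 8 clusters stood at −1.14, 0.22 and −0.17.

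These calls depended on the scaling. With DESeq2 size factors 0 members were called in either direction, while 24.6% of all genes were called higher and 31% lower, and Mir181a-1 stood at −0.87. With total reads 1 member was called higher, Mir181a-2 at 1.33, where 32.9% of all genes were called higher, and 0 were called lower, where 28% were. The scalings moved the median of all genes by 0.28 and 0.63, and with total reads Mir181c and Mir181d turned to 0.33 and 0.56. With DESeq2 size factors the chromosome 8 partners stood on opposite sides of 0, Mir181c at −0.017 and Mir181d at 0.21. Under all 3 scalings Mir181a-1 stood below 0 and both chromosome 2 genes above it, while the interval of Mir181b-1 spanned 0 under each. With TMM sizes taken without the Dlk1-Dio3 genes, the interval of Mir181b-1 lay below 0, at −0.81 (−1.58 to −0.09). Mir181b-2 was then barely above 0, at 0.07 (0.0030 to 0.14). With the dispersion estimated from the pair itself, the edgeR exact test called 0 of 410 genes, with 28 at an unadjusted p under 0.05 and none of them a Mir181 gene. That dispersion (1.23) came from the same difference that was tested, so the count of 0 says nothing about the stability of a call.

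**Figure D4:**
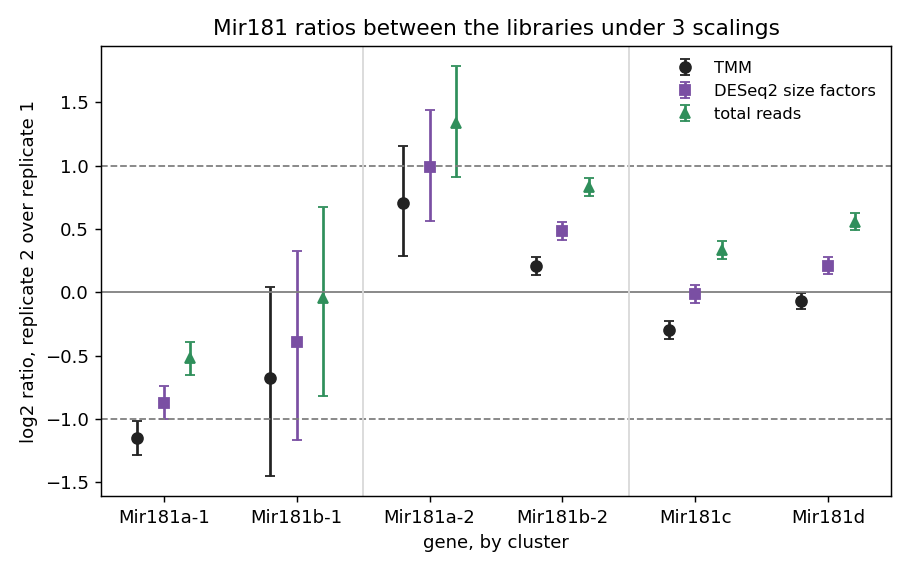
Log2 ratio of replicate 2 over replicate 1 for each Mir181 gene under 3 library scalings, with 95% counting intervals and dashed lines at the threshold of 1 in each direction. Mir181a-1 is past the threshold with TMM alone (−1.15), and Mir181a-2 with total reads alone (1.33).

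Likeness of other genes to the members was measured as the distance between genes in log2 CPM of replicate 1 and of replicate 2, so it rests on 2 libraries. Mir152 was nearest to Mir181a-1, at a distance of 0.15 with 1590 and 720 reads, followed by Mir18 and Mir125b-1. Mir20a was nearest to Mir181c, at 0.19 with 3890 and 2822 reads, followed by Mir872 and Mir342. Mir342 was nearest to Mir181d, at 0.27 with 4519 and 3991 reads, followed by Mir20a and Mir324. Mir140 was nearest to Mir181b-2, at 0.43 with 2777 and 4976 reads, followed by Mir467d and Mir320. The low genes Mir181a-2 and Mir181b-1 were nearest to Mir1249 (0.23) and Mir5121 (0.30).

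**Figure D5:**
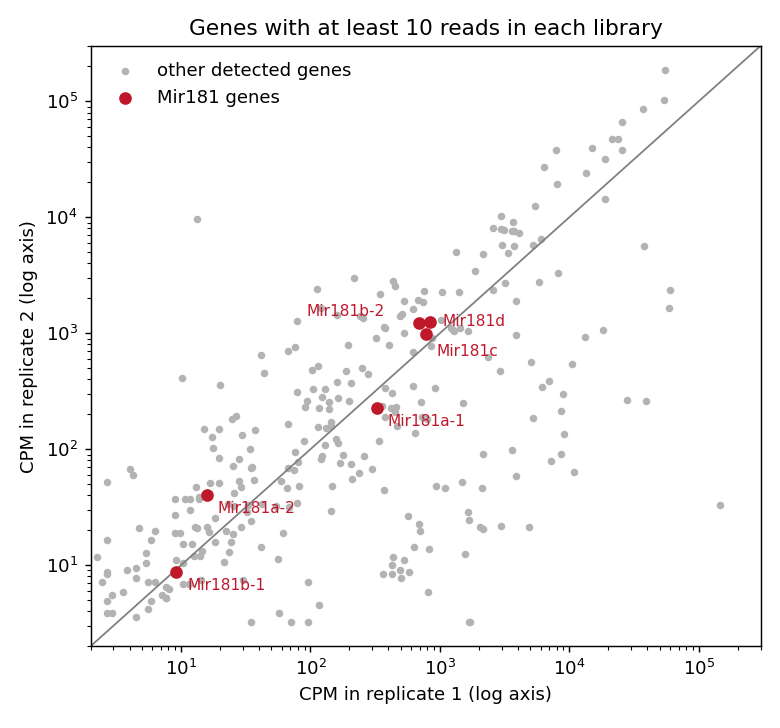
CPM in replicate 2 against CPM in replicate 1 (log axes) for the 299 genes with at least 10 reads in each library, with the line of equal CPM. Mir181a-1 (324 and 225 CPM) and Mir181b-1 (9.20 and 8.79 CPM) lie below that line, and the other 4 Mir181 genes, Mir181a-2 among them (15.9 and 40.4 CPM), lie above it.

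Other families of paralogous clusters gave a scale for the spread among members, described without a test. From the lowest to the highest member, log2 ratios spanned 1.86 in the Mir181 family, 3.37 in the Mir30 family, 2.78 in the Mir29 family of collagen repressors and 0.99 in the Mir23-27-24 clusters. With TMM, where 17.6% of all tested genes were called higher in replicate 2, this held for 3 of 6 genes of the Mir30 family, 1 of 4 of the Mir29 family and 0 of 6 of the Mir23-27-24 clusters. With total reads, where 32.9% of all genes were called higher, it held for 5, 2 and 3 genes, and 0 genes of these families were called lower under either scaling. The cluster of Mir23a lies on the same chromosome as Mir181c, 29.6 kb away on the other strand. Mir23a had 106809 and 145021 reads, a log2 ratio of 0.35, against −0.30 and −0.07 for Mir181c and Mir181d.

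Markers of cell types in which Mir181 genes are studied moved between the same libraries. The calls stand beside 17.6% of all tested genes called higher in replicate 2 and 36.1% called lower with TMM. Of 5 lymphoid and myeloid markers, 3 were called higher in replicate 2 and 1 lower, and their summed level was 793 CPM in replicate 1 and 4294 CPM in replicate 2, with 0 markers at 0. Among them Mir150, a lymphocyte microRNA, had 298 and 2178 reads, and Mir155, induced in activated lymphocytes and macrophages, had 534 and 5042. The marker called lower was the myeloid microRNA Mir223, with 726 and 345 reads (−1.16), named after its value was seen, and with DESeq2 size factors or total reads 0 markers were called lower. Of 11 annotated neural markers, 4 were tested, 1 was called higher and 3 lower. Their sum was 1422 and 426 CPM, and the 6 annotated Mir9 and Mir124a genes were at 0 in both libraries. Reads that map to several places are given to no gene, so these counts of 0 do not show absence. Of the endothelial markers, 1 was tested and 0 were called with TMM, or 1 higher with either other scaling, with sums of 25417 and 66160 CPM.

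Muscle and connective tissue markers moved too, beside the same 17.6% of all tested genes called higher and 36.1% called lower with TMM. The 10 skeletal muscle genes summed to 656702 and 14733 reads, of which Mir206 alone held 652657 and 101. The sum thus follows Mir206 and not the list, as 3 of 8 tested genes were called higher and 3 lower. Those called higher were Mir499 (1953 and 8633 reads), Mir208b (1068 and 4340 reads) and Mir486 (456 and 1468 reads). Called lower were Mir206, Mir133b (427 and 10 reads) and Mir133a-1 (34 and 16 reads). The heart gene was called higher, as given above. Both erythroid genes were called higher (220 and 979 CPM), 0 of 2 smooth muscle genes were called with TMM (21681 and 49013 CPM), and 3 of 3 tested fibroblast genes were called lower (5906 and 2807 CPM). Total reads called both smooth muscle genes higher, and DESeq2 sizes 1 of them. The part of these cell types in the shift of counted reads between the chromosome 1 and chromosome 2 loci was not tested. With 1 library on each side, animal, tissue content and library cannot be told apart, nor can the share of reads lost to several loci.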

How the data were processed

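Each library was deposited as a file of raw counts by microRNA gene, with unstranded, sense and antisense columns, of which the sense column was used. Build mm10 and annotation M21 are named per the file headers of the accompanying descriptions. Aligner, trimming and their versions: not given in the sources used here. The layout is that of STAR gene counts, with 4 summary lines that name no gene. These lines held 47.7% of replicate 1 and 57.6% of replicate 2 and were left out of library sizes and tests. All 2202 gene identifiers matched GENCODE M21, and 0 columns of other samples were used. The members, lists and tests were chosen with earlier results of these data known.

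CPM and shares have the sense total of a library as denominator. Log2 ratios used a prior count of 1 and TMM sizes over the 410 genes with at least 10 reads in total (edgeR 4.0.16, R 4.3.3). Each of these genes had a two-sided exact binomial test, with Benjamini-Hochberg adjustment. No contrast between groups exists, so the edgeR quasi-likelihood test had nothing to fit. Alternatives were DESeq2 1.42.0 size factors, total reads, other minimum counts, the unstranded column and the edgeR exact test. The code of the comparison was run on simulated counts that held set fold changes and counting noise only. Such counts hold no other variation between libraries, so that run says nothing about the reliability of the calls here. The floor for a count of 0 was 3 reads. Intervals cover counting error only and take each read as independent. No molecular identifiers are named, so a molecule copied by amplification may count as several reads, and the intervals may be too narrow. The rule for named genes took all 6 members, the 3 genes nearest to each in level, and up to 3 genes of each list by mean share. Not all genes of this rule are named in the text. Mir223, Mir486, Mir133b, Mir133a-1 and the genes of other pairs that share a mature sequence were named outside it, with their values known. Sequences came from the RefSeq table of GRCm38.p6, which held 1018 of the 2202 genes by symbol and all 6 members, and hairpins from GENCODE M21 transcripts. The rest of the genome was not searched. The comparison of pairs that share a mature sequence was added after the files were seen. Python 3.11.15, numpy 2.4.6, scipy 1.17.1, pandas 2.3.3 and matplotlib 3.10.9 were used.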

Additional observations from a re-analysis of the deposited data

How the results depend on the processing

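No paired analysis was possible because there is 1 group, and leaving out a library leaves no ratio between libraries. Another scaling shifts all log2 ratios together. Of 49 alternatives for the main results 19 were labelled as kept, as were 27 of 41 for the ratios of single Mir181 genes and 159 of 187 for the marker and family lists. Kept did not mean unchanged: Mir181b-2 was so labelled at 0.83 with total reads, against 0.21. The rule differed between kinds of result, so these counts cannot be compared. TMM without the Dlk1-Dio3 genes was labelled as kept for Mir181a-1 (−1.28) and as moved for its cluster (−1.27). The median over the family, −0.18, became 0.10 under DESeq2 sizes, 0.44 with total reads, 0.019 with a minimum of 1 read and 0.31 with a minimum of 100 reads, which left out Mir181b-1. Those minimums also change the genes that enter the TMM sizes, and beyond that the cause was not tested. The call of Mir181a-1 was lost in all of these, at −0.87, −0.52, −0.95 and −0.78, and in the unstranded column, at −0.98. The ratio of Mir181c turned to 0.33 with total reads and 0.079 with the minimum of 100 reads. That of Mir181d turned to 0.21 with DESeq2 size factors, 0.56 with total reads, 0.13 and 0.31 with minimums of 1 and 100 reads, and 0.10 in the unstranded column. The count of members called lower, 1 in the main setting, was 0 with DESeq2 size factors, total reads, either other minimum and the unstranded column, and 2 with no fold threshold. It was also 0 with the edgeR exact test, whose dispersion came from the tested difference and which says nothing about stability. The count called higher, 0 in the main setting, was 1 with total reads, 1 with a minimum of 100 reads and 2 with no fold threshold. With no fold threshold 76.8% of all tested genes passed, beside 4 of 6 members.

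In the order DESeq2 size factors, total reads, TMM without the Dlk1-Dio3 genes and unstranded column, the Mir181a-1/b-1 cluster stood at −0.86, −0.51, −1.27 and −0.96. The Mir181a-2/b-2 cluster stood at 0.50, 0.85, 0.086 and 0.39. The Mir181c/d cluster stood at 0.11, 0.45, −0.31 and −0.0011. The mean share of 0.319% was 0.149% of all reads and 0.410% in the unstranded column, and 0.266% to 0.372% with either library alone. Shared stretches were 6.54% of the family's hairpin windows at 22 nt, 10.2% at 18 nt and 3.44% at 25 nt. The median of the skeletal muscle list turned from −0.17 to 0.11 with DESeq2 size factors, 0.45 with total reads and 1.54 with a minimum of 100 reads. With DESeq2 sizes, total reads, minimums of 1 and 100 reads and the unstranded column, genes of the Mir23-27-24 clusters called higher were 2, 3, 2, 2 and 1 against 0, and smooth muscle genes 1, 2, 1, 1 and 1 against 0. Over all 410 genes, 72 were called higher and 148 lower with TMM, 101 and 127 with DESeq2 sizes, and 135 and 115 with total reads. Depth limits Mir181b-1 (41 and 27 reads) and Mir181a-2 (71 and 124 reads).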
